A study of Mus musculus with 15 samples.

Results

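The comparison set mouse embryonic stem (ES) cells sorted after 6 days of differentiation in a medium called CDL against cells sorted after 4 days in the same medium. Its members were taken from the sample labels: the 3 day 6 CDL arrays and the 3 day 4 CDL arrays, 6 of the 15 Affymetrix arrays of the series. Every differentiated culture received BMP4 at 10 ng/ml for 2 days in serum-free N2B27 medium on gelatin, without feeder cells. CDL medium then supplied CHIRON99021 (Chir, a GSK3 inhibitor that activates Wnt signalling) at 1 μM, DMSO at 0.5% and LDN (a BMP receptor inhibitor) at 0.1 μM. In the companion RDL medium, Chir was replaced by the Wnt agonist Rspo3 at 10 ng/ml. The other 9 arrays were 3 each of undifferentiated ES cells, day 4 RDL cells and day 6 RDL cells.

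The day 4 cells came from the ES line E14 (129P2 strain) and were sorted as positive for Msgn1-repV, a reporter of the presomitic mesoderm gene Msgn1. The day 6 cells came from the ES line CK35 (129Sv strain) and were sorted as positive for Pax3-GFP, a reporter of the somite and dermomyotome gene Pax3. Line, strain and sort reporter therefore changed together with the day in both media, and their parts in any difference cannot be told apart from that of the day. Each day rests on 1 cell line, and the ES lines had been kept on mouse embryonic fibroblast feeders in serum with LIF at 1500 U/ml and 2i inhibitors until 1 feeder-free passage before differentiation. RNA was extracted with Trizol or a column kit, and the labels do not tie either to a sample. The labels call the samples biological replicates without naming separate cultures, so p-values measure the spread between these samples.

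Paraxial mesoderm is the embryonic tissue that flanks the neural tube and is cut into somites, which later give vertebrae, muscle and dermis. Wnt and FGF signals from the tail keep the posterior presomitic mesoderm immature, while a Notch-based clock runs in its cells; where those signals fade, cells form a segment boundary and switch on somite genes. The somite then divides into the Pax3-expressing dermomyotome and the Pax1-expressing sclerotome, the latter under hedgehog signals.

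The array medians ranged from 29.4 to 31.2 signal units over the 15 arrays. Mean correlations with the other 2 arrays of the same group ranged from 0.981 to 0.991 over the CDL arrays. Day 4 CDL replicate 1 stood apart: it correlated at 0.899 with the ES arrays, against 0.839 and 0.84 for the other day 4 CDL arrays. Over 41 genes with an ES mean above 500 and a signal below 40 in day 4 CDL replicates 2 and 3, its median signal was 19.6% of the ES mean. The same median was 1.68% and 1.57% in the arrays used for that choice, and 1.46%, 1.77% and 1.58% in the day 6 CDL arrays. Results that rest on this array are given with and without it. Day 6 RDL replicate 1 correlated least with its own group, at 0.978; it also enters the variance shared by all tests, and without it 2480 genes were called higher and 3185 lower between the CDL days. The value table carries no detection calls, and adding 12.6 to each signal before taking log2 understates the fold of dim genes. Because the samples were bulk RNA, fewer cells of a type and less RNA per cell cannot be told apart.

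Of 12400 genes tested, 4881 differed between day 6 and day 4 in CDL at an adjusted p under 0.05, which is 39.4%. Of these, 2155 were higher at day 6 (17.4%) and 2726 were lower (22.0%). The difference reached 2-fold for 377 of the higher and 564 of the lower genes, and the median difference over all genes tested was -0.02 on the log2 scale. The 3 arrays of each day did not overlap for 5907 genes (47.6%), among them 2023 of the higher and 2609 of the lower genes. Without day 4 CDL replicate 1, 1806 of the higher genes (83.8%) and 2255 of the lower genes (82.7%) were still called, and 154 and 55 others were called. All adjusted p-values are limma's, with the Benjamini-Hochberg method applied to every tested gene. Differences are day 6 minus day 4 on the log2(signal + 12.6) scale, given with their standard error (SE), and the order of values is replicates 1, 2 and 3 throughout. Gene lists share some members, so their counts are not independent. Each list count is to be read beside the 17.4% higher and 22.0% lower over all genes.

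The genes behind the sort reporters followed the labels. Msgn1 gave signals of 366, 334 and 312 in the day 4 CDL arrays and 44.3, 43.9 and 43.6 in the day 6 CDL arrays. All day 4 arrays were well above all day 6 arrays, and the difference was -2.63 ± 0.14 (adjusted p = 7.92e-10). Pax3 gave 49.8, 51.6 and 62.7 at day 4 and 515, 618 and 435 at day 6. The days did not overlap, and Pax3 rose by 2.98 ± 0.15 (adjusted p = 2.16e-10). Since cells were sorted on reporters of these genes, their differences are part of how the samples were made.

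Summed signals of marker genes were compared with the labels by array. The presomitic mesoderm markers include Msgn1 and the somite markers include Pax3, the genes behind the sort reporters. Over 8 presomitic mesoderm markers the sum ran from 6901 to 8667 at day 4 and from 892 to 1129 at day 6, and 7 of the 8 fell. Over 9 somite and dermomyotome markers it ran from 2387 to 3403 at day 4 and from 7128 to 11100 at day 6, and 7 of the 9 rose. The sum of 8 ES markers was 13392 in day 4 CDL replicate 1, 3033 and 2919 in the other day 4 arrays, and 722 to 1366 at day 6. Markers of the lateral plate (187 to 209 against 179 to 202) and of endothelium and blood (148 to 154 against 151 to 163) were low on both days, with none of 3 tested members of either set called. Neural crest markers summed to 214 to 338 at day 4 and 186 to 197 at day 6, with 1 of 5 called in each direction. Neural markers summed to 1309 in day 4 replicate 1, to 190 and 214 in the other day 4 arrays, and to 350 to 440 at day 6, with 1 of 6 tested members lower. Endoderm markers summed to 525 to 607 at day 4 and 325 to 380 at day 6, with Foxa1, Foxa2 and Sox17 higher and the epithelial gene Epcam lower among 6 tested. Markers of fibroblasts are described with the matrix genes.

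Genes of the primitive streak and tail bud, the zone that feeds cells into the paraxial mesoderm, were mostly lower at day 6. Of 13 tested, 11 fell and 2 rose, with a median difference of -2.65; the same counts over all genes were 22.0% lower and 17.4% higher with a median of -0.02. Mixl1, a homeobox gene of the streak, gave 1173, 1170 and 1129 at day 4 and 23.4, 23 and 20.4 at day 6. It was high in every day 4 array and below the array medians at day 6, a difference of -5.07 ± 0.10 (adjusted p = 2.38e-14). Fgf8, the FGF ligand of the tail bud, gave 760, 939 and 975 at day 4 and 25.6, 24.5 and 25.5 at day 6. The groups did not overlap, and Fgf8 fell by 4.57 ± 0.12. The caudal homeobox genes Cdx1 (-3.57), Cdx2 (-2.61) and Cdx4 (-1.11), the streak and tail genes Evx1 (-3.30), Nkx1-2 (-2.65), Lhx1 (-2.70) and Eomes (-0.82), and the ligand Wnt3a (-1.24) also fell. Eomes was no longer called without day 4 replicate 1 (-0.72, adjusted p = 0.0607) or replicate 2 (-0.70, 0.073), or without day 6 replicate 1 (-0.76, 0.0648) or replicate 3 (-0.78, 0.0588). With all probe sets of a gene averaged, the difference was -0.93 for Nkx1-2 and -1.69 for Cdx2. The 2 members that rose were Fst (0.56), which encodes the activin antagonist follistatin, and Foxa2 (0.50), a node and endoderm factor whose signal stayed between 26.9 and 48.7. Wnt3 and Gsc were too dim to be tested.

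The posterior presomitic mesoderm genes had the lowest median of the lists described, at -3.06: of 12 tested, 10 fell and 1 rose. The 10 include Msgn1, whose reporter was used for the day 4 sort. Tbx6, the T-box factor that commits cells to a paraxial fate, gave 824, 931 and 846 at day 4 and 25.5, 25.9 and 25.2 at day 6. All day 6 arrays were below the array medians, and Tbx6 fell by 4.53 ± 0.13 (adjusted p = 6.32e-13). Rspo3, a secreted Wnt agonist made by these cells, gave 2003, 2316 and 2304 at day 4 and 163, 111 and 167 at day 6. It fell by 3.81 ± 0.14 with no overlap between days, and the CDL medium did not contain the Rspo3 protein. Fgf4 fell by 3.80, the apelin receptor gene Aplnr by 1.89 and Fgf17 by 0.97, and the protocadherin gene Pcdh19 (-3.50) fell too. Fgf4 was 573 in day 4 replicate 1 against 229 and 203 in the others, and fell by 3.35 without that array. Over the mean of all probe sets, the difference was -1.92 for Fgf4 and -2.86 for Rspo3. Fgf18 rose instead, from 18, 17 and 19.4 to 96.5, 122 and 69.4 (1.80 ± 0.16). Cyp26a1, which clears retinoic acid, gave 213, 208 and 181 at day 4 and 185, 208 and 208 at day 6, and its groups overlapped.

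**Figure D1:**
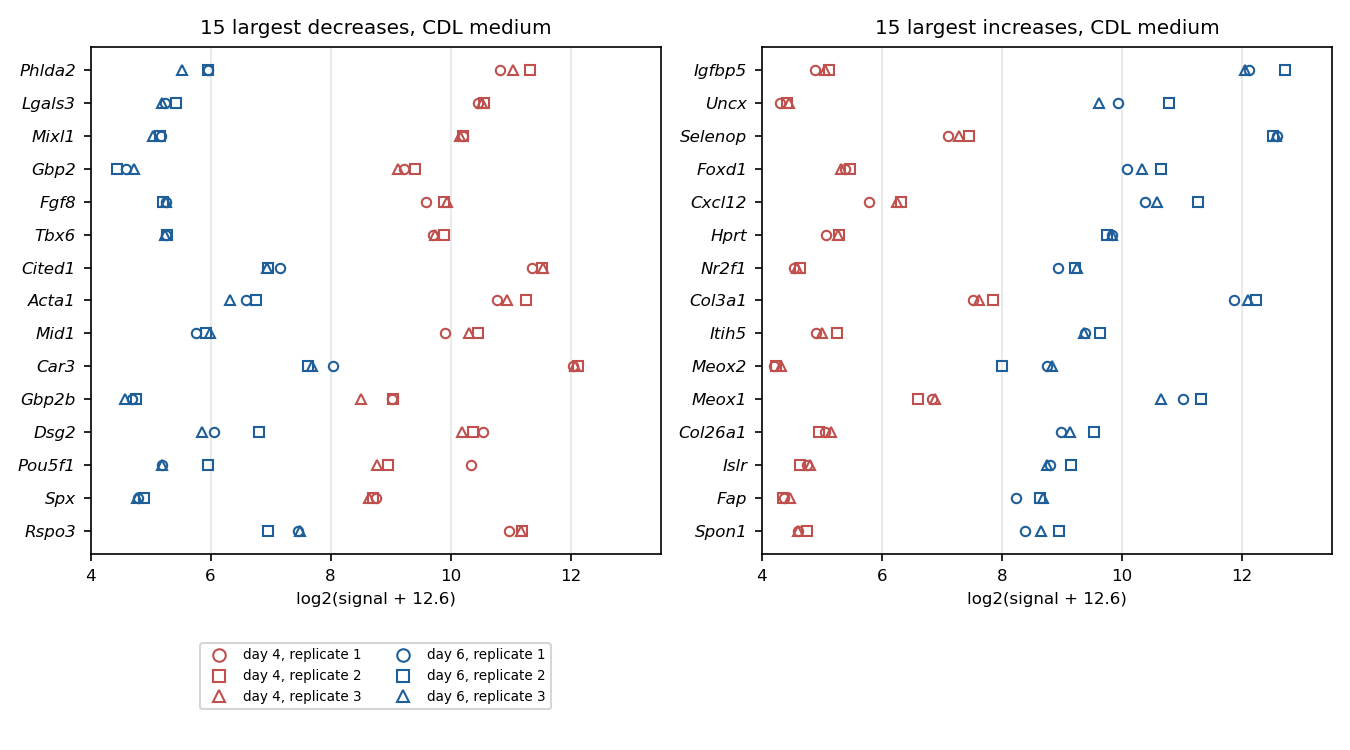
The 15 largest decreases (left) and the 15 largest increases (right) among called genes whose arrays did not overlap, with log2(signal + 12.6) of each CDL array on the horizontal axis; red symbols are day 4 and blue symbols day 6, with 1 symbol shape per replicate number. The days are separated in every gene shown, with differences of -5.25 for Phlda2 and 7.27 for Igfbp5, and Pou5f1 is highest in day 4 replicate 1.

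The promoters of 3 genes that fell are shown as examples of the Wnt and Notch groups described next. They were picked from the list members that hold a match, so that they hold one is no result. They are the 250 bases upstream of the RefSeq start (build GRCm38.p6), written 5′ to 3′ on the gene's strand, with the matched letters in capitals. CTTTGAT, a core match of TCF/LEF factors (the nuclear effectors of Wnt signalling), and GTGGGAA, a core match of RBPJ (the nuclear partner of Notch), were searched on both strands. Msgn1 lies at chr12:11208949-11209198 on the minus strand, Sp5 at chr2:70474673-70474922 on the plus strand and Hes7 at chr11:69120203-69120452 on the plus strand.
Msgn1: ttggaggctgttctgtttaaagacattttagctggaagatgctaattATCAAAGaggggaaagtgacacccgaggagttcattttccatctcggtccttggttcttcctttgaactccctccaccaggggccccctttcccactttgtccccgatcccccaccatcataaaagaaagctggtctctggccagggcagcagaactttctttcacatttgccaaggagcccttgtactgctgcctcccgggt
Sp5: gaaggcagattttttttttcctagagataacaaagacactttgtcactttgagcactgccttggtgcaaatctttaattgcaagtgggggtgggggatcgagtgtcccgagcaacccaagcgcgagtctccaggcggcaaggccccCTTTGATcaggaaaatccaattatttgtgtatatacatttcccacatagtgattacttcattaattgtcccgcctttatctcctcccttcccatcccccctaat
Hes7: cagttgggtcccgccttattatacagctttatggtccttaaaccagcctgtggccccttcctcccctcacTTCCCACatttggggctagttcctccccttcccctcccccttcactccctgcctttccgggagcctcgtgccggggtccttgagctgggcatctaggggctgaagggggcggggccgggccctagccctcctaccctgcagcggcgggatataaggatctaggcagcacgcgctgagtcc
In Msgn1 the capitals mark the opposite-strand form of the TCF/LEF letters, 203 bases before the start; in Sp5 they mark the same-strand form, 104 bases before the start; in Hes7 they mark the opposite-strand form of the RBPJ letters, 180 bases before the start. The TCF/LEF letters occurred in 1053 of 32851 promoters of this length (3.21%) and the RBPJ letters in 1779 (5.42%). Among tested genes with a promoter sequence, the TCF/LEF letters were in 2 of 8 Wnt feedback genes (Sp5 and Tnfrsf19), 1 of 9 posterior presomitic mesoderm genes (Msgn1) and 0 of 13 Notch genes. The RBPJ letters were in 4 of the 13 Notch genes (Hes5, Lfng, Hey2 and Hes7), in 2 of the 9 posterior presomitic mesoderm genes (Hes7 and Msgn1) and in 1 of the 8 Wnt feedback genes (Sp5). The RBPJ letters of Msgn1 and Sp5 are not in capitals. These matches describe letters in a window and are not measured sites.

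Wnt feedback and target genes fell together while the medium kept its Wnt activator. All 12 tested members were lower at day 6 in CDL, with a median difference of -1.33, against 22.0% lower over all genes; leaving out 1 CDL array gave 9 to 12. Sp5, a Sp-family factor and direct Wnt target, gave 951, 1372 and 953 at day 4 and 90.7, 117 and 73.1 at day 6. The lowest day 4 array was far above the highest day 6 array, and Sp5 fell by 3.38 ± 0.19 (adjusted p = 1.54e-09). Lef1, which encodes one of the TCF/LEF factors, gave 1417, 1704 and 1711 at day 4 and 245, 390 and 303 at day 6, a difference of -2.34 ± 0.21. Axin2, the classical feedback inhibitor, gave 397, 769 and 534 and then 191, 278 and 168 (-1.35 ± 0.23, adjusted p = 0.000207). Its day 4 replicates spread more than those of Lef1, but no array of either gene overlapped the other day. Other decreases were found for Sp8 (-2.27), Tnfrsf19 (-1.65), Apcdd1 (-1.32), Dkk1 (-1.64), Notum (-0.89), the ubiquitin ligase gene Znrf3 (-0.65), Nkd1 (-0.62) and the cyclin gene Ccnd1 (-0.41), and Nkd2 fell from 119, 181 and 190 to 48.3, 104 and 77.3. The calls of 3 of these genes were lost when 1 array was left out: without day 6 replicate 3, Znrf3 (-0.70, adjusted p = 0.0819), Nkd1 (-0.51, 0.158) and Ccnd1 (-0.31, 0.0901) did not pass, and without day 4 replicate 2 their adjusted p were 0.168, 0.139 and 0.0889. Znrf3 and Nkd1 also failed without day 4 replicate 3 (0.11 and 0.142) and without day 6 replicate 1 (0.171 and 0.142). Averaging all probe sets gave -0.71 for Axin2, -0.80 for Apcdd1 and -0.38 for Nkd1. Rnf43 and Lgr5 were too dim to be tested.

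Among Wnt ligands and secreted antagonists, 6 of 10 tested fell and none rose, although 1 rose without day 6 replicate 3. The ligands Wnt5a (-2.25), Wnt6 (-2.03), Wnt8a (-1.82), Wnt3a and Wnt5b (-1.15) fell, as did the antagonist Frzb (-1.63). Wnt11 was 33.1, 36.8 and 35.7 at day 4 and 32.6, 41.2 and 34.1 at day 6, with overlapping groups. The antagonists Sfrp1 (-0.33, adjusted p = 0.0776) and Sfrp2 (0.58, adjusted p = 0.0752) did not pass the test, although Sfrp1 did without day 4 replicate 2 (-0.42, 0.0459). Sfrp2 was called higher with quantile normalization (0.64, 0.0365) and without the first replicates of day 4 CDL and day 6 RDL (0.52, 0.0175). It was also called in a fit of the 6 CDL arrays, without (0.0313) and with (0.00639) a replicate block. Averaging all probe sets of Wnt5a gave -1.55.

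The FGF pathway and its ERK feedback genes were also mostly lower: 11 of 16 tested fell and 2 rose, with a median of -0.99. Over all genes, 22.0% were lower and 17.4% higher. The ligand Fgf15 fell by 2.25, the receptor gene Fgfr1 by 1.60 and the feedback genes Spred2, Il17rd, Spry2 and Spry4 by 1.61, 1.60, 1.11 and 1.04. The ETS factors that read out FGF signalling, Etv5 and Etv4, fell by 1.73 and 0.62. The receptor genes changed in opposite directions: Fgfr1 gave 1017, 1295 and 1309 at day 4 and 380, 394 and 388 at day 6, while Fgfr2 gave 35.7, 46.1 and 56.3 and then 252, 378 and 324. Neither gene overlapped between days, and Fgfr2 rose by 2.49 ± 0.19 (adjusted p = 4.78e-08). Averaging all probe sets gave 1.16 for Fgfr2, -1.02 for Etv5 and -0.78 for Spred2. Spry1 rose by 1.61, from 123, 131 and 128 to 383, 604 and 309. Dusp6, an ERK phosphatase gene, remained between 1714 and 2192 on all 6 arrays and was not called (-0.07, adjusted p = 0.693).

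Notch genes moved in both directions. Of 17 tested, 7 fell, 3 rose and 7 were not called, against 22.0% lower and 17.4% higher over all genes. The share that rose was thus close to that over all genes. The ligand Dll1 gave 1629, 2467 and 2674 at day 4 and 300, 529 and 315 at day 6 (-2.54 ± 0.25), and the divergent ligand Dll3 fell by 3.49. The oscillating repressor Hes7 gave 465, 549 and 808 and then 34.2, 39.6 and 34.1, a difference of -3.64 ± 0.17 with no overlap. The clock modulators Nrarp (-2.76) and Lfng (-1.67), the ligand Jag1 (-1.22) and the receptor Notch1 (-0.75) were also lower. The 3 members that rose were all repressors of the Hes and Hey family: Heyl (1.61), Hey1 (1.38) and Hes1 (1.18). Hey1 gave 84.6, 110 and 135 at day 4 and 255, 356 and 300 at day 6, and Hes1 gave 203, 417 and 448 and then 695, 953 and 719. Neither overlapped between days, although day 4 replicate 1 was the lowest array for both, and without it their differences were 1.22 and 0.84. Notch1 was not called when any 1 of 4 arrays was left out: day 4 replicate 2 (-0.71, adjusted p = 0.0518) or 3 (-0.67, 0.056), or day 6 replicate 1 (-0.67, 0.0648) or 3 (-0.53, 0.0968). With all probe sets of a gene averaged, the difference was -0.91 for Lfng, -0.74 for Jag1 and 0.92 for Heyl. Notch2, Notch3, Jag2, Mfng, Hes5, Hey2 and Rbpj were not called. Notch3 was called without day 6 replicate 2 (-0.61, adjusted p = 0.0241) and with array weights (-0.61, 0.000364). Rbpj was called without the first replicates of day 4 CDL and day 6 RDL (0.25, 0.0492).

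At the segment boundary, 4 of 9 tested genes rose and 3 fell, against 17.4% higher and 22.0% lower over all genes. Uncx, a homeobox gene of the posterior part of each somite, gave 7.07, 8.72 and 9.25 at day 4 and 968, 1748 and 769 at day 6. It was below the array medians in every day 4 array and rose by 5.72 ± 0.33 (adjusted p = 1.65e-09), the second largest increase by the naming rule. Tbx18, a T-box gene of the anterior part, gave 33.7, 32.7 and 32.3 and then 171, 174 and 198 (2.09 ± 0.13). Efnb2, an ephrin of the posterior half-segment, rose by 2.01 and Cer1, a secreted antagonist, by 0.82. Epha4, the receptor found opposite ephrins at the boundary, gave 487, 449 and 513 and then 80.5, 114 and 120. It fell by 2.09 ± 0.13 with no overlap, as did the protocadherin gene Pcdh8 (-2.11; -2.52 without day 4 replicate 1). The boundary factors Mesp1 (-0.50, adjusted p = 0.0312), Mesp2 (-0.41, adjusted p = 0.134) and Ripply2 (-0.14, adjusted p = 0.325) gave small differences at signals of 146 or less. When 1 CDL array was left out, Mesp1 passed only without day 4 replicate 1 (-0.73), and its adjusted p reached 0.162 without day 4 replicate 3 (-0.29). Without day 4 replicate 2 its adjusted p was 0.0836, and without day 6 replicates 1, 2 or 3 it was 0.0629, 0.0774 or 0.0592. Mesp2 was called lower with array weights (-0.43, 0.024) and in a fit of the 6 CDL arrays (-0.41, 0.0493). The same held without the first replicates of day 4 CDL and day 6 RDL (-0.52, 0.0336). Over the mean of all probe sets, the difference was 1.02 for Efnb2.

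Somite genes were higher at day 6: 9 of 11 tested rose and none fell, with a median difference of 2.98, against 17.4% higher over all genes. The 9 include Pax3, whose reporter was used for the day 6 sort. Meox1, a homeobox gene needed for somite identity, gave 102, 84.8 and 105 at day 4 and 2057, 2538 and 1595 at day 6. The groups were far apart, and Meox1 rose by 4.22 ± 0.18 (adjusted p = 4.90e-11). Its paralogue Meox2 rose by 4.28 ± 0.17, from 5.72, 6.17 and 7.27 to 417, 244 and 442. Tcf15, a factor of somite epithelialisation, gave 101, 75.8 and 97.6 and then 1001, 1408 and 834 (3.37 ± 0.22). The dermomyotome factor Dmrt2 gave 8.03, 11.6 and 9.63 and then 251, 307 and 193, an increase of 3.53 ± 0.26. For both Tcf15 and Dmrt2 all day 4 arrays lay below all day 6 arrays. The forkhead gene Foxd1 rose by 4.97, Twist1 by 2.23, Foxc2 by 2.02 and Foxp1 by 1.00. Foxc1, at 642 to 1019 on day 4 and 897 to 1592 on day 6, was not called (0.39, adjusted p = 0.28). Aldh1a2, which makes retinoic acid in somites, gave 1245, 1482 and 1629 and then 1120, 1219 and 1022, and did not pass the test (-0.37, adjusted p = 0.0791). It was called as lower without day 4 replicate 1 (-0.47, adjusted p = 0.0431) and under 5 other alternatives (adjusted p from 0.00626 to 0.0482).

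Genes that mark the derivatives of the somite were detected unevenly. Of 9 dermomyotome and muscle progenitor genes tested, 4 rose and none fell. They were Pax3 (the gene of the day 6 sort reporter), Sim1 (2.75), Eya1 (2.33) and Myf5 (1.28), which encodes the earliest of the myogenic factors. Sim1 gave 11, 13.4 and 26.4 at day 4 and 189, 168 and 189 at day 6. Myf5 gave 17.9, 27.4 and 23.4 and then 91.1, 55.4 and 77.1. Neither gene overlapped between days, and Myf5 remained at a low signal. A further 6 members were too dim to be tested, among them Pax7, which marks later muscle progenitors, and the differentiation factors Myod1 and Myog (12.3 ± 1.72 at day 4 and 12.9 ± 1.62 at day 6, SD, n = 3, for Myog). All 4 tested sclerotome genes rose. Pax1, the sclerotome paired-box gene, gave 16.2, 17.4 and 20.9 and then 197, 363 and 261, an increase of 3.18 ± 0.22 (adjusted p = 1.52e-08) with no overlap. Sox9 (1.32), the proteoglycan gene Bgn (1.25) and Pax9 (0.40) rose less, and Pax9 was not called when day 4 replicate 1, 2 or 3 was left out (adjusted p = 0.0624, 0.0627 and 0.0502) or day 6 replicate 2 (0.22, 0.125). Averaging all probe sets gave 1.46 for Sim1, 1.12 for Eya1, 2.00 for Pax1 and 0.78 for Sox9. Nkx3-2, Scx and Foxf2 were too dim to be tested.

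**Figure D2:**
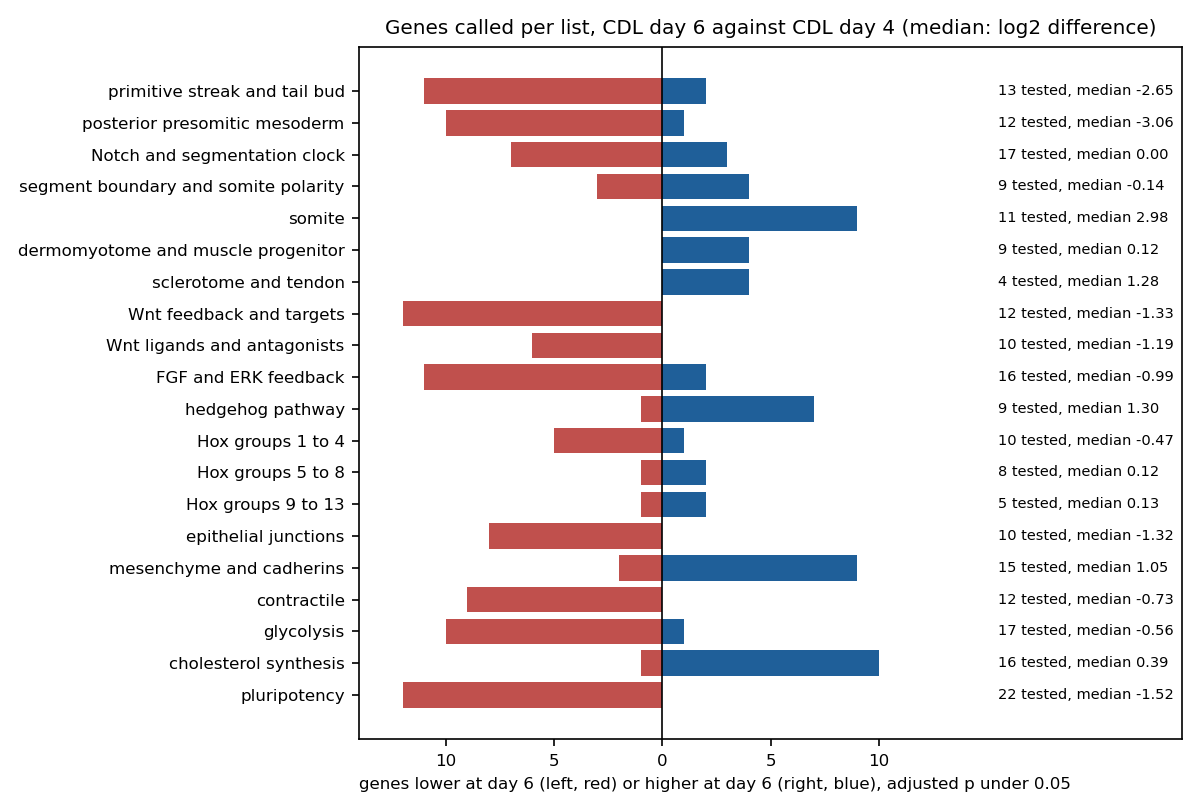
Number of genes per list that were lower (red, left) or higher (blue, right) at day 6 than at day 4 in CDL at an adjusted p under 0.05, with the number of genes tested and the median log2 difference of each list at the right. The bars point left for the 12 Wnt feedback genes and the 12 pluripotency genes called, and right for the 9 somite genes called.

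Hedgehog genes, which in the embryo answer Shh from notochord and floor plate and pattern the sclerotome, were mostly higher at day 6. Of 9 tested, 7 rose and 1 fell, with a median of 1.30, against 17.4% higher and 22.0% lower over all genes. The receptor and target gene Ptch1 gave 559, 739 and 794 at day 4 and 2031, 2976 and 2379 at day 6, and rose by 1.80 ± 0.20. Gli1, the transcription factor gene most used as a readout, gave 40.1, 48.7 and 52.7 and then 160, 235 and 211 (1.84 ± 0.17). Both sets of arrays were fully separated. The co-receptor genes Gas1 (1.38), Boc (1.34) and Cdon (1.30), the factor Gli2 (1.28) and the antagonist Hhip (0.53) also rose, whereas Gli3 fell by 0.54. The signal transducer gene Smo was not called (-0.12, adjusted p = 0.639). The ligand gene Shh, counted with the notochord genes, gave 40.3, 46.4 and 50.9 at day 4 and 136, 367 and 207 at day 6. It rose by 1.99 ± 0.24 (adjusted p = 7.43e-06) with a wide spread at day 6. The other tested notochord genes, Foxa2 and Chrd (0.31, adjusted p = 0.0207), rose by less, and Chrd was not called without day 4 replicate 1 (0.26, adjusted p = 0.0741) or day 6 replicate 2 (0.24, 0.0764). Gli3 was not called without day 4 replicate 2 or 3 (adjusted p = 0.129 and 0.111), or day 6 replicate 1 or 3 (0.15 and 0.141). With all probe sets of a gene averaged, the difference was 0.97 for Ptch1, 0.74 for Cdon, 0.22 for Hhip and 1.04 for Shh.

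Other signalling lists held members called in both directions, beside 17.4% higher and 22.0% lower over all genes. Of 11 BMP and TGF ligands and antagonists, 5 rose and 4 fell, and 3 rose without day 6 replicate 2. The ligand Bmp5 rose by 3.40, from 22.2, 22.1 and 22.8 to 419, 252 and 431 (1.67 over all its probe sets), while Bmp4 fell by 1.42. The Nodal ligand (-2.62) and its targets Lefty2 (-3.05) and Lefty1 (-2.17) fell. Lefty2 was 322 in day 4 replicate 1 and 194 and 185 in the others, and fell by 2.81 without that array. Of 10 BMP response genes, 3 rose (Id2 1.57, Id4 1.08, Id3 0.87) and 3 fell (Msx1 -2.46, Msx2 -0.54, Smad6 -0.52), and Msx1 differed by -1.61 and Msx2 by -0.31 over all their probe sets. Id3 was not called without day 4 replicate 1 (0.62, adjusted p = 0.173) or 2 (0.93, 0.0696), or day 6 replicate 2 (0.71, 0.128) or 3 (0.89, 0.0899). Id4 was not called without day 4 replicate 2 or 3 (adjusted p = 0.0829 and 0.0933) or day 6 replicate 3 (0.101). In the retinoic acid group, the receptor gene Rarb rose by 1.85 and the reductase gene Dhrs3 by 1.16, both known retinoic acid targets, and the transporter gene Stra6 rose by 0.89. Rarg fell by 0.77 (-0.49 over all its probe sets) and the binding protein gene Crabp2 by 0.61, and the other 6 of the 11 tested were not called. Without day 4 replicate 1, 4 members of this list were called lower.

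Hox genes, which mark position along the body axis, were called in both directions, against 17.4% higher and 22.0% lower over all genes. Of 10 tested from groups 1 to 4, 5 fell and 1 rose; of 8 from groups 5 to 8, 1 fell and 2 rose; and of 5 from groups 9 to 13, 1 fell and 2 rose (2 fell without day 4 replicate 3). Hoxb1 gave 2139, 2125 and 1859 at day 4 and 213, 278 and 159 at day 6. This was the largest decrease among them (-3.19 ± 0.18, adjusted p = 9.79e-10), with no overlap. Hoxd1 fell by 1.58, Hoxc4 by 0.84, Hoxb2 by 0.83, Hoxa4 by 0.60 and Hoxc5 by 0.51. Hoxa9 gave 22.3, 24.8 and 22.1 and then 101, 115 and 146, a rise of 1.89 ± 0.18, whereas Hoxd9 of the same group fell by 1.13 from 374, 526 and 524 to 172, 238 and 216. Hoxa7 rose by 0.56, Hoxc9 by 0.46, Hoxb4 by 0.47 and Hoxd8 by 0.45. Several of these calls were lost when 1 array was left out. Hoxb4 and Hoxd8 were not called without day 4 replicate 1 (adjusted p = 0.12 and 0.109), day 6 replicate 2 (0.0641 and 0.085) or day 6 replicate 3 (0.0555 and 0.0691). Hoxa4 failed without day 4 replicate 2 (0.0956) or day 6 replicate 3 (0.0534), Hoxb2 without day 4 replicate 3 (0.0553) or day 6 replicate 3 (0.0567), and Hoxc9 without day 4 replicate 2 (0.0515). Over the mean of all probe sets, the difference was 1.18 for Hoxa9, -0.38 for Hoxa4 and -0.20 for Hoxc5, and Hoxb4 and Hoxd8 were not called (adjusted p = 0.0851 and 0.0741). The tested Hox genes that did not pass were Hoxa2, Hoxa3, Hoxb3, Hoxd3, Hoxa5, Hoxb5, Hoxb6, Hoxc6, Hoxc8, Hoxb9 and Hoxc13, with differences between -0.35 and 0.22. Of these, Hoxa2, Hoxa3, Hoxb3 and Hoxa5 were called lower with array weights (adjusted p from 0.00344 to 0.00963). The same genes were called lower without the first replicates of day 4 CDL and day 6 RDL (0.0109 to 0.0498). Hoxc6 was called higher over the mean of its probe sets (0.22, 0.0183), and Hoxc13 lower without day 4 replicate 3 (-0.49, 0.0105). Among 7 Hox cofactor genes tested, Meis1 rose by 2.06, Pknox2 by 0.76 and Pbx2 by 0.47, and Meis3 fell by 0.38. Meis3 was not called without day 4 replicate 2 (adjusted p = 0.0948) or day 6 replicate 3 (0.108), nor Pbx2 without day 4 replicate 3 (0.0529), and Meis1 gave 1.25 over all its probe sets.

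**Figure D3:**
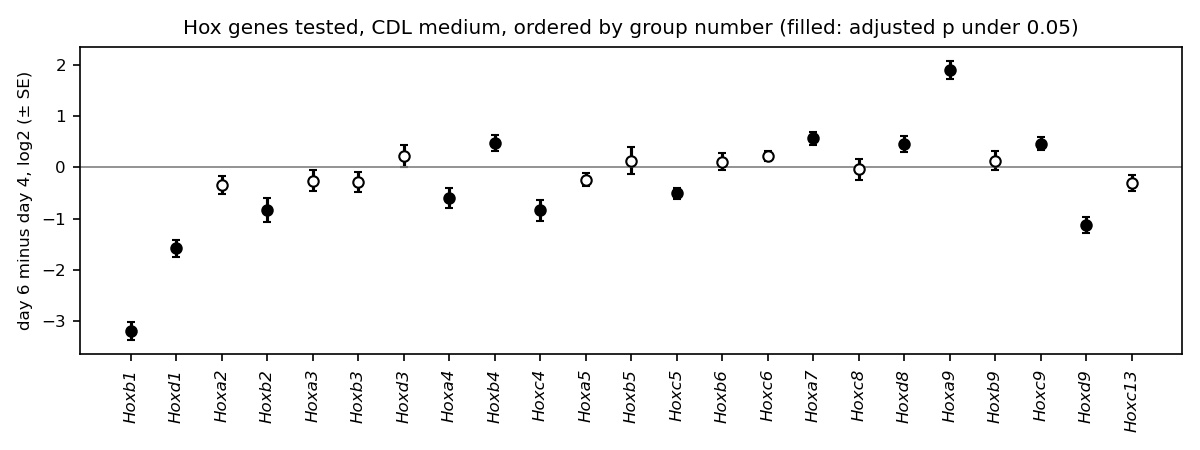
Day 6 minus day 4 difference in CDL (log2, bars ± SE) for the 23 Hox genes tested, ordered by group number; filled points had an adjusted p under 0.05. The differences run from -3.19 for Hoxb1 to 1.89 for Hoxa9, and most genes of groups 5 to 8 lie near 0.

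Pluripotency genes were mostly lower at day 6, by an amount that differed with and without day 4 CDL replicate 1. With all arrays, 12 of 22 tested genes fell and none rose, with a median of -1.52. Without that array, 11 fell, 3 rose and the median was -0.40. Pou5f1, which encodes OCT4, gave 1277, 486 and 424 at day 4 and 23.9, 49.7 and 23.9 at day 6. Even the lower day 4 arrays were far above day 6, and the difference was -3.91 ± 0.30 with that array and -3.42 without it (adjusted p = 2.16e-09). Nanog was 1441 in replicate 1 but 40.9 and 41.4 in the other day 4 arrays, against 23.3, 44.6 and 36.5 at day 6. Its days overlapped, and it was not called with that array (-1.79, adjusted p = 0.099) or without it (-0.21, adjusted p = 0.427), although it was when day 4 replicate 2 or 3 was left out instead (-2.59 and -2.58, adjusted p = 0.0281 and 0.027). Sox2, also a neural progenitor factor, was 1102 in replicate 1, 67.2 and 44.2 in the other day 4 arrays, and 194, 262 and 254 at day 6. Its difference was 0.53 with the array (adjusted p = 0.61) and 1.88 without it (adjusted p = 0.000608). Klf2 went from 0.81 (adjusted p = 0.184) to 1.65 (adjusted p = 1.73e-05) in the same way, and Zfp42 from -2.38 to -0.99. Zfp42 was not called without day 6 replicate 1 or 3 (adjusted p = 0.0652 and 0.0558). The de novo methyltransferase gene Dnmt3b gave 1612, 1734 and 1461 at day 4, and it (-1.52), Sall4 (-1.71), Klf5 (-3.79) and the RNA-binding gene Lin28a (-2.04) fell with all arrays. Without replicate 1, Dnmt3b differed by -1.51, Sall4 by -1.67 and Klf5 by -3.64, and Klf5 gave -1.41 over all its probe sets. Of 8 germline genes, 4 fell with replicate 1 and 3 without it, and leaving out 1 other CDL array gave 2 (day 6 replicate 3) to 6. The largest of these decreases was in the RNA helicase gene Ddx4 (83.6, 85.1 and 56.5 against 12.2, 9.04 and 11.6).

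**Figure D4:**
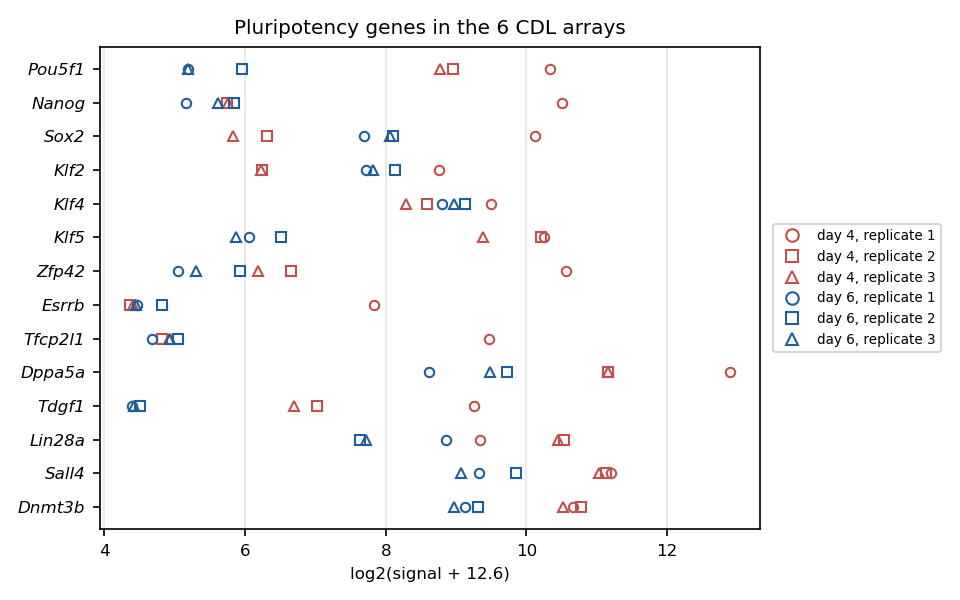
log2(signal + 12.6) of 14 pluripotency genes in the 6 CDL arrays, with day 4 in red and day 6 in blue and 1 symbol shape per replicate number. Day 4 replicate 1 (red circles) lies above the other day 4 arrays for Nanog, Sox2, Esrrb and Tfcp2l1, whose other day 4 signals are near or below those of day 6, and close to them for Sall4 and Dnmt3b.

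Epithelial adhesion genes were mostly lower and mesenchymal genes mostly higher at day 6. Of 10 epithelial junction genes, 8 fell and none rose (1 rose without day 6 replicate 3), with a median of -1.32. Krt8, an epithelial keratin gene, gave 4129, 4119 and 3684 at day 4 and 342, 579 and 382 at day 6 (-3.19 ± 0.16). E-cadherin, encoded by Cdh1, gave 1512, 1104 and 906 and then 116, 160 and 106, a difference of -3.07 ± 0.22, and -2.87 without day 4 replicate 1. Neither gene overlapped between days, and Epcam (-2.15), Cldn4 (-1.80), Esrp1 (-1.34), Krt18 (-1.30), Grhl2 (-0.46) and Cldn7 (-0.42) fell as well. Cldn7 was not called without day 4 replicate 1 (-0.24, adjusted p = 0.165) or day 6 replicate 1 (-0.32, 0.148) or 3 (-0.41, 0.0899). Averaging all probe sets gave -1.08 for Epcam and -0.07 for Grhl2 (adjusted p = 0.389). Of 15 mesenchyme and cadherin genes, 9 rose and 2 fell, with a median of 1.05. Cdh11, a mesenchymal cadherin gene, gave 146, 163 and 149 and then 1953, 1918 and 2365, and rose by 3.66 ± 0.11 (adjusted p = 9.22e-13). Twist2 (2.55), Pdgfrb (1.88), Snai2 (1.67), Prrx2 (1.48), Zeb1 (1.22), Prrx1 (1.05) and Tcf4 (0.87) rose with Twist1. Cdh2, which encodes N-cadherin, fell by 1.08, from 1541, 1645 and 1566 to 734, 735 and 764, and Pdgfra fell by 0.64. With all probe sets of a gene averaged, the difference was 0.56 for Zeb1 and 0.43 for Prrx1.

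Of 13 matrix and fibroblast genes, 6 rose and 5 fell, beside markers of the feeder fibroblasts on which the lines had been kept. Over all genes, 17.4% were higher and 22.0% lower. Col3a1, a fibrillar collagen gene, gave 171, 218 and 184 at day 4 and 3715, 4828 and 4393 at day 6, and rose by 4.41 ± 0.12. Dcn (1.56), Col1a1 (1.28), Col1a2 (1.26), Col5a2 (1.22) and Lum (1.10) rose less, while the fibronectin gene Fn1 fell by 1.84, from 5118, 5891 and 5616 to 1423, 1973 and 1303. Over 7 fibroblast markers the summed signal was 816 to 1034 at day 4 and 5192 to 7064 at day 6, most of it from Col3a1 and Col1a2, and 5 rose and 1 fell. Of these markers, Postn stayed at 14.8 to 23.7 on all 6 arrays. Lum and Dcn, which rose, ranged from 10.5 to 51.7 and from 19.8 to 119 over both days. Thy1 fell by 1.19, from 59.5, 67.1 and 67.6 to 22.5, 21.4 and 20.2. Dcn gave 0.79 over all its probe sets. The part of residual feeder cells in the matrix result was not tested. Contractile genes fell: 9 of 12 tested were lower and none higher (1 higher without day 6 replicate 1), with a median of -0.73. Acta1, the skeletal actin gene, gave 1731, 2426 and 1953 and then 83.9, 95.2 and 67.2 (-4.43 ± 0.16), and Cnn1 (-2.51), Myl9 (-2.34), Tagln (-1.73) and Actc1 (-1.54) followed.

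Secreted factors and guidance genes held several of the largest increases. Igfbp5, an insulin-like growth factor binding protein gene, gave 17, 22.2 and 20.7 at day 4 and 4451, 6749 and 4211 at day 6. This was the largest increase by the naming rule (7.27 ± 0.22, adjusted p = 9.22e-13), and averaging all probe sets of the gene gave 3.94. Selenop, a secreted selenium carrier gene, gave 125, 162 and 143 and then 6100, 5864 and 6022 (5.28 ± 0.14). The chemokine gene Cxcl12 gave 42.8, 67.6 and 64 and then 1327, 2461 and 1530 (4.63 ± 0.23; 2.97 over all its probe sets). None of these genes overlapped between days. Igf2 rose by 1.91, from 1742, 2414 and 2629 to 8076, 9586 and 7719, and Igf1 by 0.72, while Igfbp3 fell by 1.68. The guidance receptor gene Nrp1 rose by 3.84, Sema3a by 1.67, the decoy chemokine receptor gene Ackr3 by 1.51 and Slit2 by 1.14, and Slit3 fell by 1.21. Of 10 guidance genes tested 5 rose and 4 fell, and of 11 genes of the IGF axis 4 rose and 2 fell. Without day 4 replicate 1, 3 guidance genes fell and 6 genes of the IGF axis rose. The median of the IGF axis was then 0.62, against 0.34 with that array. The shares over all genes were 17.4% higher and 22.0% lower. Without day 6 replicate 1, 2 guidance genes fell, and 1 gene of the IGF axis fell without that array, day 6 replicate 3 or day 4 replicate 2 or 3. Of 16 Eph and ephrin genes, 8 rose (5 without day 6 replicate 2) and 7 fell; Epha7 rose by 2.07, and Epha1 (-2.37) and Efna1 (-2.34) fell. Over the mean of all probe sets, the difference was 0.44 for Igf1, 2.40 for Nrp1, 0.85 for Sema3a, 1.22 for Epha7 and -1.38 for Epha1.

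Other genes among the 15 largest increases were the COUP factor gene Nr2f1 (4.55), Itih5 (4.40; 2.87 over all its probe sets), Col26a1 (4.17; 2.19), Islr (4.17), the fibroblast activation protease gene Fap (4.13) and Spon1 (4.01; 1.20). Other genes among the 15 largest decreases were the imprinted gene Phlda2 (-5.25), the galectin gene Lgals3 (-5.22), the transcriptional coregulator gene Cited1 (-4.46), the ubiquitin ligase gene Mid1 (-4.34; -1.99 over all its probe sets), the carbonic anhydrase gene Car3 (-4.29; -2.83), the desmosomal gene Dsg2 (-4.12; -2.36) and Spx (-3.88). Phlda2 gave 1807, 2542 and 2086 at day 4 and 49.7, 49.5 and 33.4 at day 6, and Lgals3 gave 1388, 1487 and 1451 and then 25.4, 30.4 and 24.1. In both, the highest day 6 array was far below the lowest day 4 array.

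Hprt, the purine salvage enzyme gene used in ES cell selection, was among the 15 largest increases and moved with the cell line. It gave 20.8, 26.5 and 25.9 in the day 4 CDL arrays and 897, 851 and 904 in the day 6 CDL arrays and rose by 4.60 ± 0.16 (adjusted p = 3.13e-12). In the undifferentiated E14 cells it gave 46.8, 26.5 and 32.1, in the day 4 RDL arrays it gave 34.6, 18.8 and 25.3, and in the day 6 RDL arrays 1008, 855 and 887. It was thus dim on all 9 arrays of the E14 line and bright on all 6 of the CK35 line, and the day changes in the media differed by 0.00 ± 0.22 (adjusted p = 0.996). Of the other cell line linked genes tested, the Y-linked Uty rose by 0.68 (0.39 over all its probe sets), while Eif2s3y (0.20, adjusted p = 0.193) and Xist did not pass. Eif2s3y was called without day 6 replicate 2 (0.33, adjusted p = 0.0219), with array weights (0.00293) and over the mean of its probe sets (0.045). Day and line cannot be told apart here.

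Imprinted genes followed no common direction: of 18 tested, 8 rose and 5 fell (3 without day 6 replicate 1 or 3). The shares over all genes were 17.4% higher and 22.0% lower. Mest, a mesoderm-expressed imprinted gene, gave 267, 318 and 315 at day 4 and 4286, 4913 and 4509 at day 6, and rose by 3.88 ± 0.12. The days were fully separated. The neuronatin gene Nnat rose by 3.02, Dlk1 by 1.50, Plagl1 by 0.92, Sgce by 0.83 and Grb10 by 0.81, and Peg10 fell by 1.03. Meg3 rose by 0.64 with all arrays but was not called without day 4 replicate 1 (0.42, adjusted p = 0.189) or day 6 replicate 2 (0.46, 0.158) or 3 (0.62, 0.108). Plagl1 gave 1.47 without day 4 replicate 1 (adjusted p = 2.5e-05), but was not called without day 4 replicate 2 (adjusted p = 0.15) or 3 (0.178), or day 6 replicate 2 (0.0833) or 3 (0.115). Over all their probe sets, Dlk1 gave 0.87, and Meg3 and Plagl1 both gave 0.41 and were not called (adjusted p = 0.0701 and 0.0686).

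Glycolysis genes were mostly lower and lipid synthesis genes mostly higher at day 6, against 22.0% lower and 17.4% higher over all genes. Of 17 glycolysis genes, 10 fell and 1 rose, with a median of -0.56, or -0.30 without day 4 replicate 1: Ldha, lactate dehydrogenase A, gave 4815, 4612 and 4505 at day 4 and 3202, 2937 and 3129 at day 6 (-0.59 ± 0.07). Aldoc fell by 1.43, Ldhb by 1.29, Aldoa by 0.80 and the glucose transporter gene Slc2a1 by 0.70. Aldoc gave -0.72 over all its probe sets. Hk2 fell by 0.52 but was not called without day 4 replicate 1 (-0.28, adjusted p = 0.112) or day 6 replicate 1 (0.0766) or 3 (0.0817). Of 16 cholesterol and fatty acid synthesis genes, 10 rose and 1 fell, with a median of 0.39: Msmo1 by 1.39, Fdft1 by 0.83 (0.49 over all its probe sets) and Idi1 by 0.70, while the fatty acid synthase gene Fasn fell by 0.80 (adjusted p = 0.0591 and 0.0596 without day 6 replicate 1 or 3). Of 17 respiratory chain genes, 6 rose and 3 fell, and leaving out day 6 replicate 1 or 3 left 3 that rose, while 5 fell without day 6 replicate 2; the largest increases were Sdhb (0.65) and Ndufb5 (0.52). DNA replication genes fell in 7 of 17 and rose in 1, led by Mcm2 (-0.53), a larger share lower than over all genes. Mitosis genes fell in 4 and rose in 2 of 15, with Cdc20 at -1.18, and these mitosis shares were near those over all genes. Leaving out 1 CDL array gave 0 to 2 higher in each of these lists, with 0 mitosis genes higher without day 6 replicate 1 and 2 replication genes higher without day 6 replicate 2. The cell cycle inhibitor gene Cdkn1a gave 1384, 1579 and 1374 and then 410, 427 and 439 (-1.73 ± 0.11). It was 1 of 8 members of the 12 cell cycle inhibitor and p53 target genes that fell. Without day 4 replicate 1, 6 members fell and none rose. Pmaip1 (-1.62) and Sesn2 (-1.32) also fell. Cdkn1b rose by 0.46 (0.28 over all its probe sets), but was not called without day 4 replicate 1 or 2 (adjusted p = 0.0876 and 0.116) or day 6 replicate 3 (0.186).

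Stress and immediate early genes moved in part, beside 17.4% higher and 22.0% lower over all genes. Of 14 immediate early genes, 6 rose and 1 fell; Jun rose by 2.00, from 107, 90.9 and 121 to 356, 505 and 536, Fosb by 1.31 and Fos by 0.62, and Mycn fell by 1.13 (-0.61 over all its probe sets). Of 10 heat shock genes, 5 fell and none rose (3 fell without day 4 replicate 1, and 3 fell and 1 rose without day 6 replicate 2), including Hspb1, which was 2838 in day 4 replicate 1, 729 and 536 in the other day 4 arrays, and 111, 329 and 145 at day 6 (-2.48; -1.76 without replicate 1). Of 13 genes of the amino acid stress response, 4 rose and 3 fell, with a median of 0.07 (0.12 without day 4 replicate 1). None of the 4 metallothionein and zinc transport genes was called by limma at an adjusted p under 0.05, with the lowest at 0.186 (Mt2).

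Genes of other lineages were called in both directions, beside 17.4% higher and 22.0% lower over all genes. Of 11 neural genes tested, 3 rose and 2 fell: the adhesion gene Ncam1 by 1.59, Irx3 by 0.82 and Nkx6-1 by 0.49 rose, and Nes (-0.76) and Tubb3 (-0.61) fell. Without day 4 replicate 1, Irx3 (0.68, adjusted p = 0.0974) and Tubb3 (-0.25, 0.196) were not called, but others were, among them Sox2, and the counts became 4 higher and 1 lower. Irx3 also failed without day 4 replicate 3 or day 6 replicate 2 (0.0675 and 0.112), and Tubb3 without any day 6 replicate (0.076, 0.0883 and 0.0934). Ncam1 gave 0.74 over all its probe sets. The early neural genes Sox1, Sox3 and Pax6 were not called, with differences of 0.20, 0.02 and 0.08, although over all their probe sets Sox1 (0.44, adjusted p = 2.87e-05) and Pax6 (0.12, 0.0271) were. Of 9 neural crest genes, 4 rose and 2 fell; the ETS factor gene Ets1 gave 99.3, 112 and 96.1 at day 4 and 599, 454 and 707 at day 6 (2.36 ± 0.24; 1.43 over all its probe sets), while the defining crest factors Sox10 and Foxd3 did not pass. Of 9 lateral plate and cardiac genes, 1 rose and 3 fell, led by Isl1 (-1.99), and of 5 intermediate mesoderm genes, Eya1 rose and Lhx1 fell. A second lateral plate gene rose without day 6 replicate 3, and a second intermediate mesoderm gene fell without day 6 replicate 2. Of 9 endothelium and blood genes, Flt1 rose by 0.29, a call lost without each CDL array but day 4 replicate 1 (adjusted p from 0.0518 to 0.181), and Lmo2 fell from 1496, 2059 and 2090 to 418, 326 and 346 (-2.32 ± 0.18). Of 9 endoderm genes, 3 rose and 1 fell (2 fell without day 6 replicate 2), with Foxa1 at 17.6, 21.0 and 20.0 and then 67.3, 79.5 and 85.0 (1.48 ± 0.17). The days did not overlap for Ets1, Lmo2 or Foxa1.

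The day change was then set against the same change in RDL medium, which shares no array with it. In RDL, 3838 genes (31.0%) were called, 1711 higher (13.8%) and 2127 lower (17.2%). Of the genes higher in CDL, 1163 were also higher in RDL, 28 were lower and 964 were not called. Of those lower in CDL, 1601 were also lower in RDL, 26 were higher and 1099 were not called. The changes in the media correlated with r = 0.82 over the 12400 genes, which are not independent of each other. The test of the difference between the changes (the interaction) called 668 genes (5.39%), 286 with a larger value in CDL (2.31%) and 382 with a larger value in RDL (3.08%). That count was sensitive to day 6 RDL replicate 1, without which 552 and 664 genes were called.

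**Figure D5:**
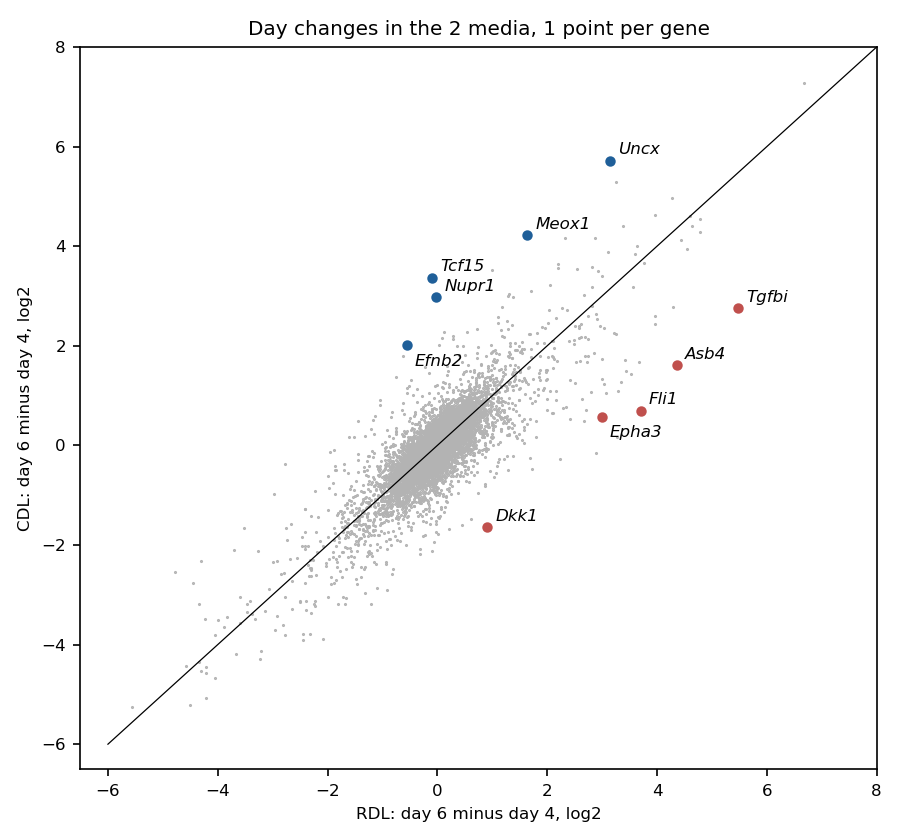
Day 6 minus day 4 difference in RDL (horizontal) and in CDL (vertical), log2, with 1 grey point for each of 12400 genes and the line of equal change; blue and red points are the 5 genes named in each direction of the difference between the media. Tcf15 and Nupr1 lie near 0 in RDL and above 2.9 in CDL, and Fli1 and Epha3 lie at 3.70 and 2.99 in RDL and below 1 in CDL.

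The 5 genes named in favour of CDL were Tcf15, Meox1, Uncx, Efnb2 and Nupr1. They were chosen among genes whose CDL arrays did not overlap between days, so their change in CDL is part of the choice. Tcf15 rose by 3.37 in CDL, whereas the RDL arrays gave 313, 461 and 411 at day 4 and 256, 466 and 411 at day 6, a difference of -0.09. Its RDL groups overlapped at intermediate signals, and the interaction was 3.46 ± 0.31 (adjusted p = 6.09e-06). Meox1 gave 662, 618 and 463 and then 1708, 2047 and 1725 in RDL, so that its day 4 arrays lay above those of CDL and its day 6 arrays overlapped them, with an interaction of 2.58 ± 0.25. Uncx gave 20.1, 35.3 and 33.9 and then 175, 543 and 465 in RDL, with day 6 replicate 1 the lowest (2.58 ± 0.47). Efnb2 gave 601, 764 and 670 and then 263, 643 and 545 in RDL, against its rise in CDL (2.58 ± 0.37). Nupr1, a stress-induced chromatin protein gene, gave 101, 63.9 and 56.4 and then 839, 446 and 722 in CDL, against 49.8, 61.9 and 44.7 and then 72.7, 44.9 and 39.6 in RDL. Only its CDL groups were separated, and the interaction was 2.98 ± 0.33 (adjusted p = 3.67e-05). Among other list members, the interaction was 2.55 for Dmrt2, 1.61 for Pax3 and 2.40 for Aldh1a2, which fell by 2.77 in RDL.

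The 5 genes named in favour of RDL included some that stayed low in CDL on both days. Fli1, an ETS factor gene of endothelium and blood, gave 7.15, 8.25 and 7.42 and then 25.6, 12.2 and 24.4 in CDL, but 7.15, 7.8 and 9.19 and then 219, 281 and 270 in RDL. All day 6 RDL arrays were far above all day 6 CDL arrays, and the interaction was -3.00 ± 0.19 (adjusted p = 2.66e-07). Asb4, a ubiquitin ligase adaptor gene, gave 26.6, 34 and 27.7 and then 115, 94.2 and 141 in CDL, against 48.7, 35.7 and 47.7 and then 1371, 976 and 1121 in RDL (-2.75 ± 0.21). Tgfbi, a secreted matrix protein gene, gave 45.1, 51.6 and 54.6 and then 350, 505 and 396 in CDL, against 46.1, 38.8 and 48.7 and then 1751, 2884 and 3111 in RDL (-2.71 ± 0.27). Both genes rose in both media, by less in CDL. The Eph receptor gene Epha3 stayed at 7.05 to 20.8 in CDL and reached 173, 136 and 115 in RDL (-2.41 ± 0.15). The Wnt antagonist gene Dkk1 gave 136, 295 and 201 and then 62.9, 50.6 and 55 in CDL, and 93.4, 185 and 96 and then 191, 270 and 242 in RDL. It fell by 1.64 in CDL and rose by 0.90 in RDL, with an interaction of -2.54 ± 0.34 (adjusted p = 0.000256). Otx2, a head patterning gene outside the naming rule because its CDL arrays overlapped (36.1, 6.70 and 7.20 against 15.9, 17.5 and 17.6), differed by 0.16 in CDL (0.60 without day 4 replicate 1, adjusted p = 0.000279), rose by 3.28 in RDL and gave an interaction of -3.12 (adjusted p = 3.47e-05).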

How the data were processed

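Total RNA was amplified in 2 cycles, biotin-labelled and hybridised to Affymetrix mouse arrays, per the labels' protocols. The value table deposited by the authors holds a linear intensity for each of 45101 probe sets, made with MAS5 per the submitters' processing notes; its version is not given. Of the probe sets, 64 were controls, 34945 had 1 gene symbol, 932 several and 9160 none; each of 18193 genes was represented by its probe set with the highest mean.

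From the deposited values, log2(signal + 12.6) was computed, 12.6 being the median over arrays of their 25th percentile, with no further scaling. Genes above the array median in fewer than 3 arrays (5793) were left out, and 12400 were fitted in limma 3.58.1 (R 4.3.3; Python 3.11.15 for tables) with 5 group means over 15 arrays, a mean-variance trend and Benjamini-Hochberg adjustment at 0.05. The number of arrays limits the precision. The script was tested on simulated data.

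Named genes were the 15 largest called increases and decreases whose arrays did not overlap, passing over clones and predicted genes. The 5 largest called differences between media each way were named among genes whose CDL arrays did not overlap between days. All measured Hox genes and list members by size or role were also named. Further genes the text describes were added after their values were seen, 335 in all, including the interferon and antigen genes, which are in no list. The members and lists were chosen with earlier results of these data known. Replicate numbers were taken to pair the RDL days, whose same-numbered arrays deviated together (correlations of 0.28, 0.26 and 0.22), but not the CDL days. The reported fit did not use this pairing. Its RDL changes and differences between media rest on unpaired group means, and a replicate block entered only as an alternative. Alternatives covered the added constant, filter, scaling, probe set summary, variance model, array weights, arrays in the fit, a replicate block and each array left out.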

Additional observations from a re-analysis of the deposited data

Results flagged for a closer look

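The difference between the day changes in CDL and RDL was called for 668 genes. The naming rule, which also required CDL arrays that did not overlap between days, picked 10 of them. All 10 kept their direction and their call under every alternative in which they were tested. The difference (CDL minus RDL, log2) was 3.46 for Tcf15, 2.98 for Nupr1, 2.58 for Efnb2, 2.58 for Uncx and 2.58 for Meox1. It was -3.00 for Fli1, -2.75 for Asb4, -2.71 for Tgfbi, -2.54 for Dkk1 and -2.41 for Epha3. The groups hold 3 arrays each, so no single array could be tested against the others of its group.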

How the results depend on the processing

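The counts of genes called between day 6 and day 4 in CDL stayed within 1.5 times of the reported ones under all alternatives run; they ran from 1695 to 2480 higher and from 2063 to 3185 lower over the fits that left out 1 CDL or RDL array, and were 3106 and 3903 with array weights. The counts for the difference between media moved more. They were 1697 higher and 1984 lower with array weights, 561 and 676 without the arrays that stood apart (the first replicates of day 4 CDL and day 6 RDL), and 222 lower with the filter at the 75th percentile. Leaving out 1 array gave 192 (without RDL day 4 replicate 2) to 552 (without RDL day 6 replicate 1) higher and 290 to 664 lower. The stricter filter tests fewer genes, but the causes of these shifts were not tested. Of 335 named genes, 291 were called, 240 of them in the same direction under every alternative that tested them, and none reversed. The stricter filter left some named genes, such as Ackr3, untested. With the replicate number as a replicate block in a fit of the 6 CDL arrays, 2008 genes were called higher and 2604 lower, against 1807 and 2375 without the block; the deviations of same-numbered arrays correlated at 0.07, 0.14 and 0.14, each array correlated best with its own number, and the numbers were not taken to pair the CDL samples. That block lost the calls of 10 named genes and added 3, Aldh1a2 (adjusted p = 0.042), Foxc1 (0.0442) and Sfrp2 (0.00639). The counts of the RDL day change, whose alternatives were chosen after seeing the data, as was leaving out RDL arrays for the CDL counts, all stayed within 1.5 times; with the block within medium they were 1698 and 2080, and those of the difference between media 233 and 311. Low signals, for which there are no detection calls, limit the fold changes of dim genes.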

Other observations

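Several genes known from the interferon response and antigen presentation were lower at day 6 in CDL. They were picked after their values were seen, so they show nothing about such genes as a group. Gbp2, an interferon-induced GTPase gene, gave 582, 664 and 547 at day 4 and 11.6, 9.09 and 13.7 at day 6, a difference of -4.67 ± 0.16. Its relatives Gbp2b and Gbp3 differed by -4.18 and -3.12. The peptide-loading gene Tapbp gave 1069, 1178 and 1013 and then 64.9, 87.7 and 64.8 (-3.70; -2.13 over all its probe sets), and the immunoproteasome gene Psmb8 gave 292, 287 and 302 and then 22.7, 24.2 and 21.0 (-3.12; -1.63). No day 4 array of Gbp2, Tapbp or Psmb8 overlapped the day 6 arrays. Ifi35 differed by -3.61 (-2.26 over all its probe sets), Tap1 by -1.33 (-0.33 over all its probe sets) and the class I gene H2-K1 by -1.16 (-0.75). The class I light chain gene B2m was not called (0.33, adjusted p = 0.132). It was called without day 6 replicate 2 (0.53, 0.00975) and with array weights (0.43, 0.00241). The cell line and strain changed with the day, and their part in these differences cannot be told apart from that of the day.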
